A study of Mus musculus with 12 samples.

Results

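The genes described here had less mRNA after 4 h of 4-hydroxytamoxifen (4-OHT) than after its solvent ethanol (EtOH) and had a BMAL1-bound region near their start. They were chosen from the mRNA values themselves. A gene was taken when its mean level over the 4 mRNA libraries was at least 5 CPM (reads of the gene per 1000000 counted reads), both 4-OHT values lay below both EtOH values, the log2 ratio of the 4-OHT mean to the EtOH mean was −0.25 or lower, and a BMAL1 region lay within 10 kb of the start. The start is the upstream end of the outermost annotated exon. Of 23420 genes in the count table, 10297 had a mean of 5 CPM or more, 1394 of these had both 4-OHT values below both EtOH values, 160 of these passed the −0.25 threshold, and 48 of these had a region. Another 7 were left out by name, because the rule sets aside 14 genes, among them the clock genes Nr1d1, Nr1d2 and Per3. This left 41 genes.

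All cells were embryonic fibroblasts from mice of strain background 129/sv, homozygous knockouts for 4 genes (per1 -/-, per2 -/-, nr1d1 -/-, nr1d2 -/-), and all carried a PER2-ER transgene, the controls included. The 4-OHT groups received 1 µM 4-OHT and the EtOH groups 0.1% EtOH, each for 4 h. Stranded mRNA-seq, ChIP-seq with an antibody to BMAL1, and the matching ChIP inputs were each done in 2 libraries with 4-OHT and 2 with EtOH, 12 libraries in 6 groups. The promoter that drives the transgene and the number of clones are not stated in the labels, and no cells lacking the transgene were analysed here, so an action of 4-OHT through the transgene and any other action of it cannot be told apart. The labels do not say that the replicates are separate cultures, and p-values then measure only the spread between these libraries.

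BMAL1 is the DNA-binding activator of the circadian clock. It pairs with CLOCK on the E-box sequence CACGTG and drives the genes of its own repressors, the PER and CRY proteins. PER2 carries CRY to CLOCK-BMAL1, and in this way removes the activator from DNA or silences it in place. BMAL1 also binds near many genes whose mRNA does not follow its binding, and clock-controlled factors act on further genes downstream.

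The 4-OHT mRNA libraries held 69292382 and 89695667 counted reads, the EtOH ones 71633387 and 60267540. The ChIP libraries held 13740997 and 20712373 reads with 4-OHT, against 13502201 and 17635022 with EtOH, and the inputs 12481308 and 33454366 with 4-OHT, against 13736646 and 28264889 with EtOH. Reads were still counted over the 4 knocked-out genes in every library, for example 38.3 and 45.7 CPM for Per1 with 4-OHT and 41.9 and 36.5 CPM with EtOH, and since the deleted exons are not stated these counts do not check the knockouts. Of 11 fibroblast markers 8 were at 5 CPM or more, with Thy1 and Lum under 0.1 CPM, and their summed level was 28044 to 30007 CPM with 4-OHT and 27070 to 29393 CPM with EtOH. All 4 endothelial markers were under 0.1 CPM, and none of 5 myeloid or 4 neural markers reached 5 CPM. Of 5 epithelial markers 1 did, Cdh1 at a mean of 13.6 CPM, with a summed level of 14.7 to 16.9 CPM with 4-OHT and 12.5 to 13.95 CPM with EtOH. Of 4 skeletal muscle markers 1 did, Acta1 at 26.9 CPM, with a sum of 26.8 to 28.98 CPM with 4-OHT and 24.6 to 30.6 CPM with EtOH, and Myod1 and Myog were under 0.1 CPM. The part of such cells in the results was not tested.

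The share of falling genes with a nearby region was close to that of other genes. Of the falling genes, 41 of 149 had a region within 10 kb (27.5%), against 59 of 194 rising genes (30.4%) and 3105 of 10286 genes at 5 CPM or more with a usable start (30.2%). Rising genes are those picked by the mirror of the rule, with a log2 ratio of 0.25 or higher. The genes left out by name were removed from the falling and rising counts but not from the 10286. Before that removal, 48 of 160 falling genes had a region.

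The starts of these genes were read for the E-box, because it is the sequence that CLOCK-BMAL1 binds. RefSeq promoter windows of GRCm38.p6 (the mm10 build), 250 bases before to 50 after a start, were matched by symbol or synonym to 34 of the 41 genes. CACGTG, which reads the same on both strands, was found in 9 of the 34 windows (26.5%). The share was 25.5% in 47 windows of rising genes with a region, 25.8% over the 2505 windows of all genes at 5 CPM or more with a region, and 10.8% over 8094 windows of all genes at that level. In all 9 genes the CACGTG also lay inside the nearest BMAL1 region, as it did for 88.9% of the 647 windows of genes with a region. The stretches below show this motif in capitals, 5′ to 3′ on the strand of the gene, in genes whose regions are described later.
Pigw: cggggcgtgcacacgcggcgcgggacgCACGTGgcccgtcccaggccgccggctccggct
Gadd45g: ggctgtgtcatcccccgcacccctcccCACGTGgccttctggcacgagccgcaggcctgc
Il6ra: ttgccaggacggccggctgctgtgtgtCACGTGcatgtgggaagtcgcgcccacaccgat
Ccdc86: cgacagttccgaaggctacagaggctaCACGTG
Zc3h11a: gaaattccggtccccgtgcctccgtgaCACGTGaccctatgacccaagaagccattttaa
Pgrmc2: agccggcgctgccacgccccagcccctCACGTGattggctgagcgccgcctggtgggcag
Rreb1: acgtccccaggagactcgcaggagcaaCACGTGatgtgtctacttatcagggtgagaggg
The stretches lie at chr11:84880245-84880304 (minus strand) for Pigw, chr13:51846506-51846565 (plus) for Gadd45g, chr3:89913188-89913247 (minus) for Il6ra, chr19:10949238-10949270 (minus) for Ccdc86, chr1:133661486-133661545 (minus) for Zc3h11a, chr3:41083051-41083110 (minus) for Pgrmc2 and chr13:37826002-37826061 (plus) for Rreb1. Stambpl1 and Hat1 are the other two genes with the motif. Counted from the RefSeq start of the window, the CACGTG lies 9 bases before it in Rreb1, 24 in Il6ra and 37 in Pgrmc2. It lies 82 bases before it in Pigw, 119 in Zc3h11a and 142 in Gadd45g, and 23 bases after it in Ccdc86. The RefSeq start is not the start used by the rule in Pigw (90 bp apart), Il6ra (34 bp) and Zc3h11a (19 bp). In Pigw the CACGTG lies after the start used by the rule.

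The related sequence CACGTT, searched on both strands, was in 3 of the 34 windows (8.82%), against 6.43% of windows of all genes at 5 CPM or more with a region. These were Tmem86a, Errfi1 and Lrig1. The stretch of Tmem86a, the gene with the largest fall, and that of Errfi1 are shown with CACGTT in capitals. In Errfi1 the motif overlaps the palindrome tgacgtca, the cyclic AMP response element.
Tmem86a: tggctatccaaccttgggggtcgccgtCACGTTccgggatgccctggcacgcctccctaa
Errfi1: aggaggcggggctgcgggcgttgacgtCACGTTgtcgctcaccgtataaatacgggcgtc
The stretches lie on the plus strand at chr7:47050416-47050475 for Tmem86a and at chr4:150854998-150855057 for Errfi1. Their CACGTT lies 197 bases before the RefSeq start of Tmem86a and 45 before that of Errfi1. In Errfi1 the RefSeq start is 21 bp from the start used by the rule. Neither CACGTT was inside the called region, from which it lay 213 bp away in Tmem86a and 5 bp away in Errfi1. The CACGTT of Lrig1, which reads AACGTG on the strand of the gene, was inside its called region. A pair of CACGTG motifs spaced by 6 or 7 bases, the TTACGTAA form of the D-box (the site of PAR bZIP factors) and the extended ROR and REV-ERB response element were in none of the 34 windows. They were in 0.0798%, 0.0399% and 0.16% of windows of all genes at 5 CPM or more with a region. TGACGTCA was in 3 windows (8.82%, against 2.91%) and TTATGTAA, the other D-box form, in those of Myo18a and Larp1b (5.88%, against 0.319%). These shares are descriptions from small counts, and a match is not a bound site.

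The falls in mRNA were mostly small. The log2 ratio of 4-OHT to EtOH, which chose the genes and so is not tested here, had a median of −0.40 and ran from −1.34 to −0.25. Only 7 of the 41 genes fell by at least 1.5-fold and 1 by 2-fold or more. In the edgeR quasi-likelihood fit over 13216 genes, 40 of the 41 were called lower at a Benjamini-Hochberg adjusted p below 0.05, against 1.63% of all tested genes, a count that follows from how they were chosen. The count was 26 when EtOH replicate 2 was left out and 28 when EtOH replicate 1 was. Of the 40, 17 lost the call in at least 1 fit with a library left out. These were Znhit6, Lrig1, Ccdc86, Nisch, Zmiz1, 5031439G07Rik, Zc3h11a, Gemin5, Arhgap42, Mir143hg, Ppp3ca, Stambpl1, 1110057K04Rik, Samd4, Hat1, C230081A13Rik and Gpam. The gene not called was Pigw. Both 4-OHT values below both EtOH values, which the rule demands, was met by 13.5% of all genes at 5 CPM or more. The authors' deposited table listed 36 of the 41, all 36 with a negative change and 34 of them marked below their FDR of 0.05. It compares the same mRNA groups that chose the genes, so these counts also follow from the choice.

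**Figure D1:**
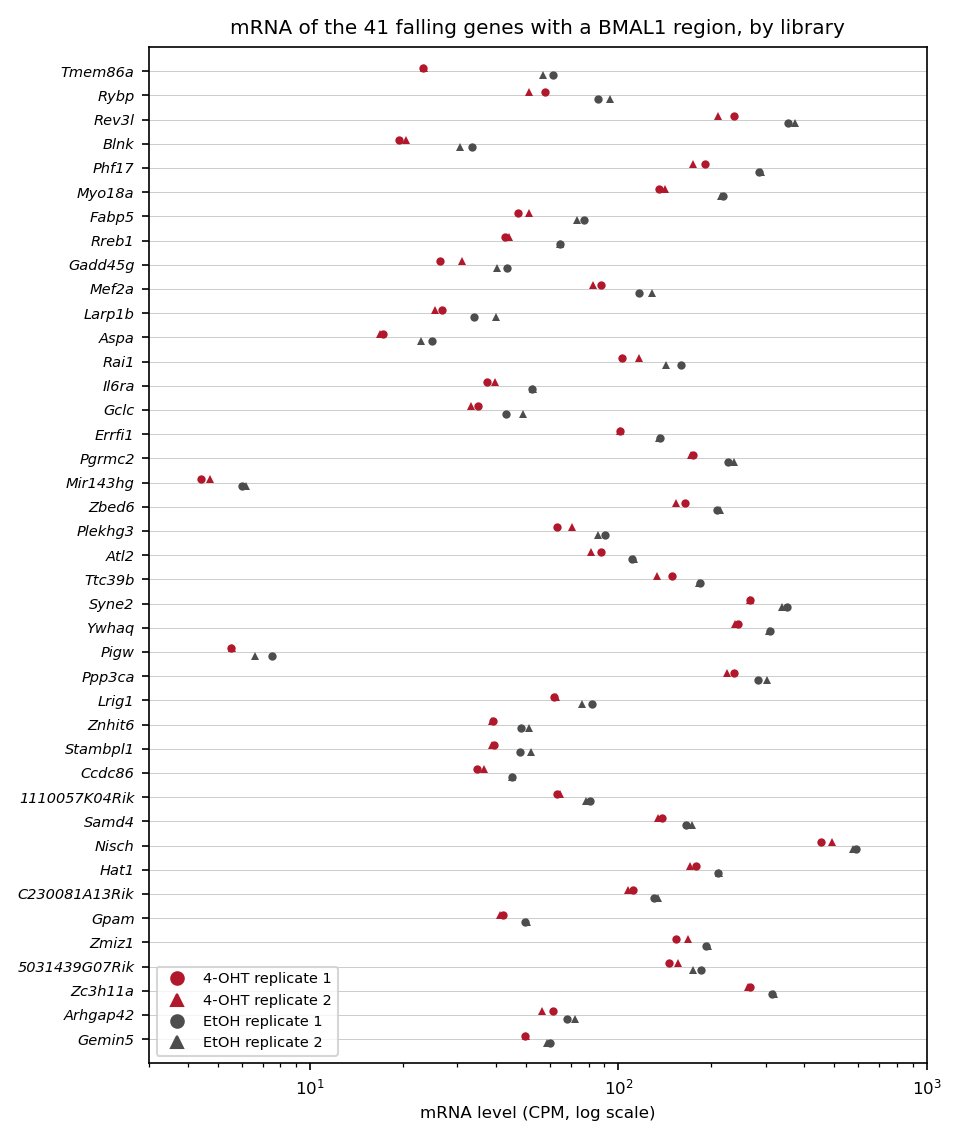
mRNA level in CPM (log axis) of each of the 41 genes in the 4-OHT libraries (red) and the EtOH libraries (grey), circles for replicate 1 and triangles for replicate 2, ordered by log2 ratio from Tmem86a (−1.34) at the top. Apart from Tmem86a the distance between the groups is small, with a median log2 ratio of −0.40.

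Tmem86a, which encodes a lysoplasmalogenase that cleaves vinyl ether lysophospholipids, stood apart from the other 40. It had 23.3 and 23.4 CPM in the 4-OHT libraries, against 61.3 and 56.9 CPM in the EtOH libraries, 2.53-fold less. The next gene in order fell by 1.64-fold. The BMAL1 region of Tmem86a, 478 bp long at chr7:47050661-47051138 and 21 bp downstream of the start, held 18.2 and 18.4 reads per 10000000 library reads (RP10M) with 4-OHT, against 68.1 and 77.1 RP10M with EtOH. The groups were far apart in both measurements, though the rule demands groups that do not overlap in mRNA. The ChIP log2 change, scaled to library totals as are all others unless stated, was −1.99 with an SE of 0.25 (edgeR adjusted p = 6.18e-15, and 0.0512 with the change of the inputs subtracted), and the region kept 25.2% of its EtOH signal.

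Several of the 41 genes encode chromatin and transcription factors. Rybp, a subunit of variant Polycomb repressive complexes, had 57.9 and 51.4 CPM with 4-OHT, against 85.6 and 94.0 CPM with EtOH. Phf17 (Jade1 in RefSeq), which encodes a scaffold of the HBO histone acetyltransferase complex, had 190.7 and 174.3 CPM with 4-OHT, against 286 and 291 CPM with EtOH. Both fell by more than 1.5-fold, and as the rule demands their groups did not overlap. Rreb1, a zinc finger factor that acts downstream of Ras, had 42.8 and 44.2 CPM with 4-OHT, against 64.8 and 64.8 CPM with EtOH. Mef2a, a MADS-box factor of muscle and stress responses, had 87.7 and 82.6 CPM with 4-OHT, against 117 and 129 CPM with EtOH. In Mef2a the EtOH libraries differed more from each other than the 4-OHT ones did. Rai1, a nuclear chromatin-binding protein whose loss causes Smith-Magenis syndrome in humans, a disorder with disturbed sleep, had 103 and 116 CPM with 4-OHT, against 159 and 143 CPM with EtOH. Zmiz1, a coactivator of the PIAS family, was near the threshold of the rule, with 154 and 168 CPM in the 4-OHT libraries and 192 and 195 CPM in the EtOH libraries.

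The strongest region near any of the 41 genes was that of Phf17. It is 1278 bp long, lies at chr3:41564456-41565733, 8722 bp downstream of the annotated start, and overlaps an annotated exon of the gene. It held 97.5 and 114 RP10M with 4-OHT, against 613 and 571 RP10M with EtOH. Per kilobase of region its EtOH level was 463 RP10M, against a median of 104 RP10M over the 40 distinct nearest regions. It kept 17.9% of its EtOH signal, the smallest share among them, with a ChIP log2 change of −2.47 (SE 0.12, adjusted p = 4.42e-92). With TMM factors over the regions, which set each region against the bulk of all regions, Phf17 was the only one of the 40 called lower (log2 −0.76, adjusted p = 6.12e-09). DESeq2 with its own size factors gave −0.76 as well (adjusted p = 1.95e-06).

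At Rreb1 the mRNA fell and the region was not called. The region, 170 bp at chr13:37825972-37826141 across the start, held 9.46 and 13.0 RP10M with 4-OHT, against 13.3 and 15.3 RP10M with EtOH. These values rest on 13 and 27 reads with 4-OHT and on 18 and 27 with EtOH. Both 4-OHT values were below both EtOH values, but the 4-OHT library nearest to the EtOH ones was close to them. The log2 change of −0.32 had an SE of 0.37 (adjusted p = 0.393), and a fall of that size was not detectable at this depth. Relative to the bulk of regions (TMM factors) it was called higher, by a log2 of 1.37 (adjusted p = 0.00539). Of the 40 genes called lower in mRNA, Rreb1 was the one with no call at its region.

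A further group acts in signalling. Blnk, an adaptor of B-cell receptor signalling, had 19.4 and 20.5 CPM with 4-OHT, against 33.4 and 30.6 CPM with EtOH. Il6ra, the ligand-binding receptor for interleukin-6, had 37.5 and 39.7 CPM with 4-OHT, against 52.5 and 52.7 CPM with EtOH. Gadd45g, a stress-induced regulator of p38 signalling and growth arrest, had 26.4 and 31.1 CPM with 4-OHT, against 43.5 and 40.4 CPM with EtOH. In all 3 the groups were clear of each other, as the rule demands, most narrowly in Gadd45g. The region across the Gadd45g start, 511 bp at chr13:51846388-51846898, held 25.5 and 25.6 RP10M with 4-OHT, against 124 and 119 RP10M with EtOH. The region across the Il6ra start, 542 bp at chr3:89912831-89913372, held 30.6 and 27.5 RP10M with 4-OHT, against 101 and 81.1 RP10M with EtOH. Both contain the CACGTG shown above, and both fell clearly (log2 −2.24, SE 0.20, and −1.65, SE 0.21, adjusted p = 2.56e-28 and 3.65e-14 in edgeR).

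Errfi1 and Lrig1 both encode inhibitors of the EGF receptor family: Errfi1 a cytoplasmic protein (MIG-6) that blocks the kinase, Lrig1 a membrane protein that promotes receptor loss. Errfi1 had 101 and 101 CPM with 4-OHT, against 137 and 135 CPM with EtOH. Lrig1 had 61.6 and 62.7 CPM with 4-OHT, against 81.8 and 76.4 CPM with EtOH. They were the 2 lower calls among 18 tested genes of a list of MAPK negative feedback genes, in which 1 gene was called higher and the median log2 change was 0.00, as it was over all tested genes, of which 1.63% were called lower and 0.802% higher. Their regions overlap the starts and were called lower, Errfi1 by a log2 of −0.91 (SE 0.38, adjusted p = 0.0185) and Lrig1 by −1.63 (SE 0.36, adjusted p = 1.14e-05). The Errfi1 call was lost without 4-OHT replicate 2 and without EtOH replicate 1. Arhgap42, a GTPase-activating protein that restrains contraction of smooth muscle, lay at the edge of the rule with 61.3 and 56.3 CPM in the 4-OHT libraries and 68.0 and 72.3 CPM in the EtOH libraries. Ywhaq, a phosphoserine-binding adaptor protein, had 244 and 239 CPM with 4-OHT, against 309 and 307 CPM with EtOH. Nisch, a membrane-traffic protein that binds integrin, had the highest mean CPM of the 41, with 454 and 493 CPM with 4-OHT, against 589 and 576 CPM with EtOH.

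Among metabolic genes, Fabp5 encodes a fatty acid carrier of the cytoplasm. It had 47.1 and 51.4 CPM with 4-OHT, against 77.5 and 73.6 CPM with EtOH, 1.53-fold less. Gclc encodes the catalytic subunit of the enzyme that limits glutathione synthesis. It had 35.0 and 33.2 CPM with 4-OHT, against 43.2 and 49.1 CPM with EtOH. Its region stands 3507 bp upstream of the start, 505 bp at chr9:77750524-77751028, and held 18.2 and 17.9 RP10M with 4-OHT, against 91.8 and 72.6 RP10M with EtOH. This was a 4.56-fold loss of signal (log2 −2.18, SE 0.24, adjusted p = 1.32e-18). Aspa, which splits N-acetylaspartate, had 17.2 and 16.8 CPM with 4-OHT, against 24.9 and 22.8 CPM with EtOH. Ttc39b, a regulator of lipoprotein and cholesterol handling in mouse liver and gut, had 150 and 134 CPM with 4-OHT, against 183 and 183 CPM with EtOH, and its region kept 20.3% of its EtOH signal. Pigw, an acyltransferase of GPI anchor synthesis, had 5.53 and 5.55 CPM with 4-OHT, against 7.51 and 6.60 CPM with EtOH, with 383 to 538 reads per library.

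Pigw had the second strongest region and one of the smallest amounts of mRNA. The region, 743 bp at chr11:84879796-84880538 across the start, held 45.1 and 44.4 RP10M with 4-OHT, against 198 and 168 RP10M with EtOH (log2 −2.03, SE 0.16, adjusted p = 3.30e-35). Per kilobase of exon, Pigw was the lowest of the 41 at 2.58 CPM with EtOH, and Ywhaq the highest at 146 CPM. The same region covers the start of Myo19, a mitochondrial myosin gene on the opposite strand whose start is 65 bp away. Myo19 had 26.6 and 27.5 CPM with 4-OHT, against 28.6 and 27.3 CPM with EtOH, and was not called (adjusted p = 0.878). Its groups overlapped.

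RNA and DNA metabolism was represented by Rev3l, Larp1b, Znhit6, Zc3h11a, Gemin5 and Ccdc86. Rev3l, the catalytic subunit of the translesion DNA polymerase zeta, had 238 and 209.7 CPM with 4-OHT, against 356 and 374 CPM with EtOH, 1.63-fold less. Larp1b, an RNA-binding protein of the La-related family, had 26.7 and 25.4 CPM with 4-OHT, against 33.9 and 40.1 CPM with EtOH. Rev3l was the third lowest of all 41 in log2 ratio, while its nearest region held only 19.3 and 18.2 RP10M with EtOH. Znhit6, an assembly factor of box C/D small nucleolar RNPs, had 39.2 and 38.9 CPM with 4-OHT, against 48.1 and 51.3 CPM with EtOH. Its region across the start held 22.6 and 13.0 RP10M with 4-OHT, against 30.4 and 23.3 RP10M with EtOH, a log2 of −0.63 (SE 0.31, adjusted p = 0.0432). That call was lost without 4-OHT replicate 2 (−0.23, adjusted p = 0.523) and without either EtOH library (adjusted p = 0.311 and 0.0525), and relative to the bulk of regions Znhit6 was called higher (log2 1.07, adjusted p = 0.0102). Ccdc86, a nucleolar protein, had 34.8 and 36.7 CPM with 4-OHT, against 45.0 and 45.3 CPM with EtOH, and its region fell 3.41-fold.

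Zbed6 and Zc3h11a share 1 region and part of 1 locus. Zbed6, a repressor derived from a DNA transposon, is annotated inside Zc3h11a, an mRNA export factor gene, on the same strand, so that their reads may not be fully separable and their changes are uncertain as separate results. Zbed6 had 165 and 154 CPM with 4-OHT, against 209 and 214 CPM with EtOH. Zc3h11a had 267 and 264 CPM with 4-OHT, against 315 and 319 CPM with EtOH. Both had groups that did not overlap, as the rule demands. The shared region, 341 bp at chr1:133661328-133661668 across the Zc3h11a start, held 13.8 and 17.9 RP10M with 4-OHT, against 60.0 and 47.1 RP10M with EtOH (log2 −1.71, SE 0.28, adjusted p = 3.29e-09).

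The cytoskeletal genes were Myo18a, an unconventional myosin of the Golgi, and Syne2, which encodes a nesprin of the nuclear envelope. Myo18a had 135 and 141 CPM with 4-OHT, against 218 and 215 CPM with EtOH. Syne2 had 267 and 268 CPM with 4-OHT, against 351 and 341 CPM with EtOH. Neither region is at the start: both are in introns, 6257 bp downstream in Myo18a and 8452 bp downstream in Syne2. They kept 47.0% and 51.4% of the EtOH signal, against a median of 30.8% over the 40 regions, and their lower calls (adjusted p = 0.00386 and 0.00244) were both lost without EtOH replicate 2, that of Myo18a also without 4-OHT replicate 2. The region of Nisch, also in an intron and 8705 bp downstream, kept 28.4%, and that of Phf17, 8722 bp downstream, kept 17.9%. The remaining named gene, 5031439G07Rik, had 146 and 156 CPM with 4-OHT, against 185 and 175 CPM with EtOH. The other 11 genes (Pgrmc2, Mir143hg, Plekhg3, Atl2, Ppp3ca, Stambpl1, 1110057K04Rik, Samd4, Hat1, C230081A13Rik and Gpam) had log2 ratios between −0.42 and −0.27 and were all called lower. Fabp5 and Ywhaq belong to families with closely similar copies, and the sources used here do not say how reads matching several copies were counted.

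At the −0.25 edge of the rule, the genes inside differ little in log2 ratio from those just beyond it. Just inside −0.25 were Zc3h11a, Gemin5 (an RNA-binding subunit of the SMN complex) and Arhgap42, at log2 ratios from −0.255 to −0.254. Just outside were Fabp3 at −0.247 and Nfat5 at −0.243. At the edge of the window, Phf17 (8722 bp), Nisch (8705 bp) and Syne2 (8452 bp) were inside, and Tnnc1 (10191 bp), Pdcd4 (10516 bp) and Tmem171 (15083 bp) outside. Pdcd4 had a log2 ratio of −0.93, below all of the 41 except Tmem86a. At the lower edge of level, Mir143hg was inside at a mean of 5.33 CPM and AI506816 outside at 3.79 CPM.

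The ChIP libraries are other libraries than those that chose the genes by mRNA. The regions, however, are named as peaks of the EtOH cells, so a region gained with 4-OHT could not enter, and regions high with EtOH by chance could. This choice favours a lower 4-OHT value, and the direction of the counts below is in part fixed by it, for these genes and for all regions alike. The 41 genes have 40 distinct nearest regions. BMAL1 signal was called lower with 4-OHT at 39 of these 40 (97.5%), the exception being Rreb1, and at none was it higher. The same call was made at 93.8% of all 4740 regions, so the share near these genes was close to that of all regions. With the change of the inputs subtracted, 22 of the 40 were called lower and 2395 of the 4740. The regions that lost the call in that fit were those of Tmem86a, Rybp, Rev3l, Fabp5, Larp1b, Rai1, Errfi1, Pgrmc2, Plekhg3, Ywhaq, Znhit6, Ccdc86, Samd4, Nisch, Hat1, 5031439G07Rik and Gemin5, all with a log2 change still below 0. All 40 had both 4-OHT values below both EtOH values, which held for 98% of all regions. The median over the 40 regions was 8.01 and 7.48 RP10M in the 4-OHT libraries, against 21.8 and 22.4 RP10M in the EtOH libraries. Permuting the 4 library medians (exact, two-sided) gave p = 0.33, the smallest that 2 libraries against 2 allow. Among the genes whose region was called lower, 12 lost that call in at least 1 fit with a ChIP library left out, and the count over the 40 regions was then 30 to 37.

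The size of the loss was also close to that at other regions. The median log2 change was −1.67 at the 40 regions, −1.67 at the 59 nearest regions of the rising genes and −1.66 over all regions. Scaling on the regions (TMM factors) moved the median over all regions to 0.02, and then 20 of the 40 regions lay above 0, 1 was called lower (Phf17) and 2 higher (Rreb1 and Znhit6). Signal remained after 4-OHT: 36 of the 40 regions were still called above the 4-OHT inputs, against 80.6% of all regions. With EtOH all 40 were above input (99.5% of all regions), which restates how the regions were called. The 36 became 21 without 4-OHT input replicate 2. In the inputs 0 regions were called between 4-OHT and EtOH by edgeR, where 218 of 4740 had an unadjusted p below 0.05, 1 of them among the 40.

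**Figure D2:**
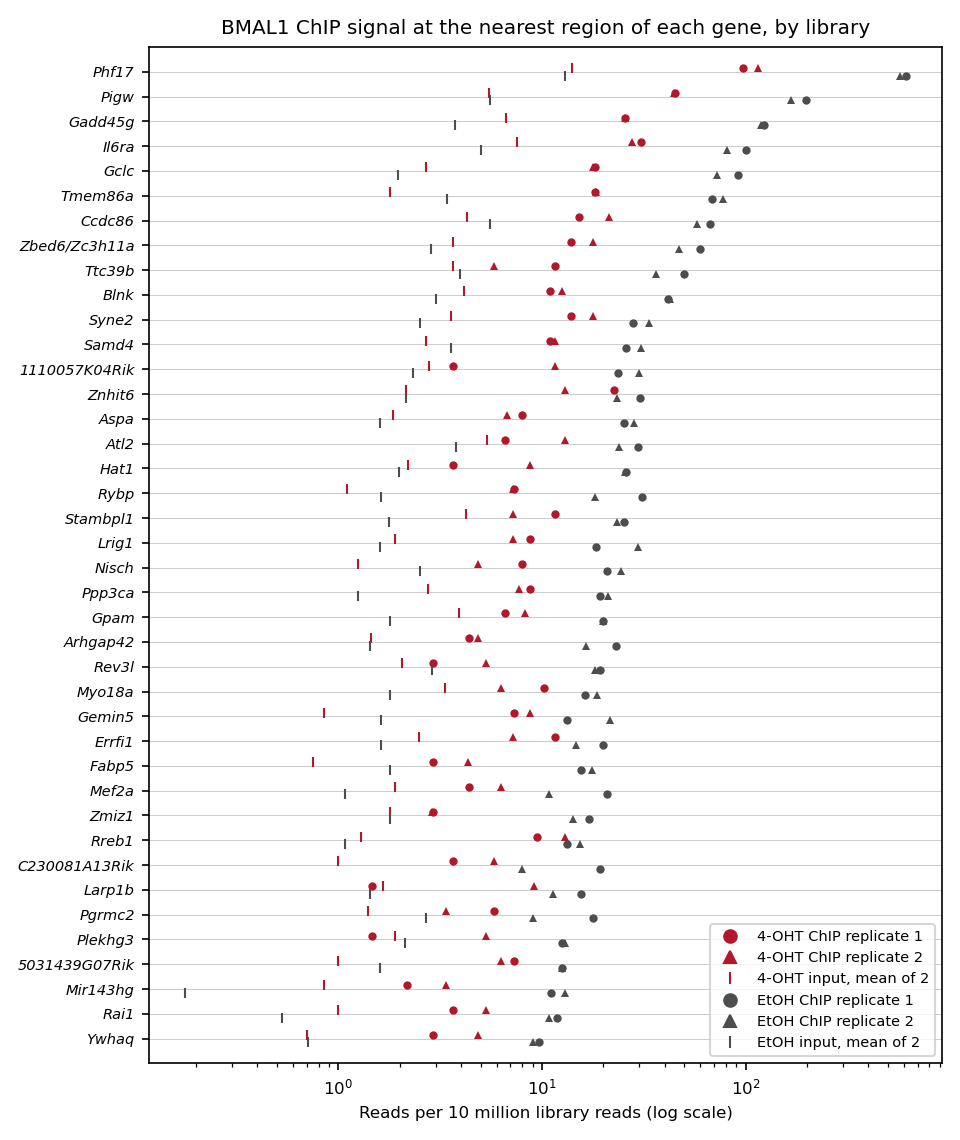
BMAL1 ChIP signal (reads per 10000000 library reads, log axis) at the 40 nearest regions, with 4-OHT in red and EtOH in grey, circles and triangles for replicates 1 and 2, and ticks for the mean of the 2 inputs, ordered by EtOH signal; an input at 0 is not drawn. Red points lie left of grey ones at all 40 regions, narrowly at Rreb1, and mostly right of the input ticks.

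Most of these regions were weak. With EtOH the median signal was 23.3 RP10M, against 23.7 RP10M over all regions, and 3 of the 40 reached 100 RP10M (7.5%), namely those of Phf17, Pigw and Gadd45g. Among nearest regions of rising genes 14 of 59 did (23.7%), and among all regions 9.7%. Of the 40 regions 29 held under 30 RP10M with EtOH (72.5%, against 60.7% of all regions). The share of EtOH signal kept ran from 17.9% at Phf17, 18.6% at Zmiz1 and 20.3% at Ttc39b to 54.4% at Errfi1, 66.4% at Znhit6 and 78.5% at Rreb1, among 40 regions in which 5031439G07Rik kept 54.1%. The call at 5031439G07Rik (log2 −0.90, adjusted p = 0.0407) was lost without 4-OHT replicate 2 and without either EtOH library, with adjusted p from 0.132 to 0.150.

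**Figure D3:**
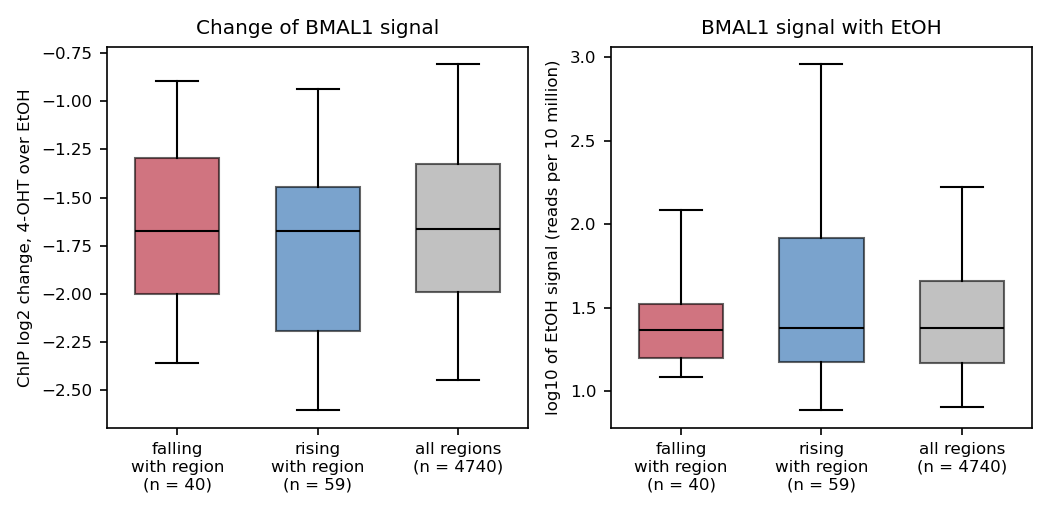
Left, ChIP log2 change (4-OHT over EtOH) and right, log10 EtOH signal, for the distinct nearest regions of the falling genes (n = 40), of the rising genes (n = 59) and for all 4740 regions; boxes span the quartiles with the median as a line, and whiskers reach the 5th and 95th percentiles. The median changes are −1.67, −1.67 and −1.66, and the upper part of the EtOH signal is highest in the rising genes.

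In position, 19 of the 41 nearest regions overlap the start (46.3%, against 45.1% of genes at 5 CPM or more with a region), 15 lie within 1 kb of it and 7 lie farther off (17.1%, against 16.2%). By the count table's annotation 23 touch an exon of the gene, 3 an intron only and 15 lie outside it. There were 8 genes with more than 1 region in the window (19.5%, against 22.6%), and of the 49 regions in all windows 46 were called lower. The 3 that were not are the Rreb1 region and 2 fragments near Tmem86a and Rev3l of 2 bp and 4 bp. For the 9 genes with CACGTG in the promoter window the median EtOH signal was 53.5 RP10M and the median ChIP log2 change −1.71, against 22.6 RP10M and −1.40 for the 25 without. Their median mRNA log2 ratios were −0.35 and −0.37.

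Gene by gene, the size of the BMAL1 loss and the size of the mRNA fall were weakly related. Over the 41 genes Pearson's r between the ChIP log2 change and the mRNA log2 ratio was 0.18 and Spearman's coefficient 0.18, and without Tmem86a they were 0.13 and 0.15. Between log2 EtOH signal and mRNA log2 ratio they were −0.25 and −0.10. All points come from the same 8 libraries, Zbed6 and Zc3h11a share a region, and the mRNA range was cut by the rule, so these are descriptions.

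**Figure D4:**
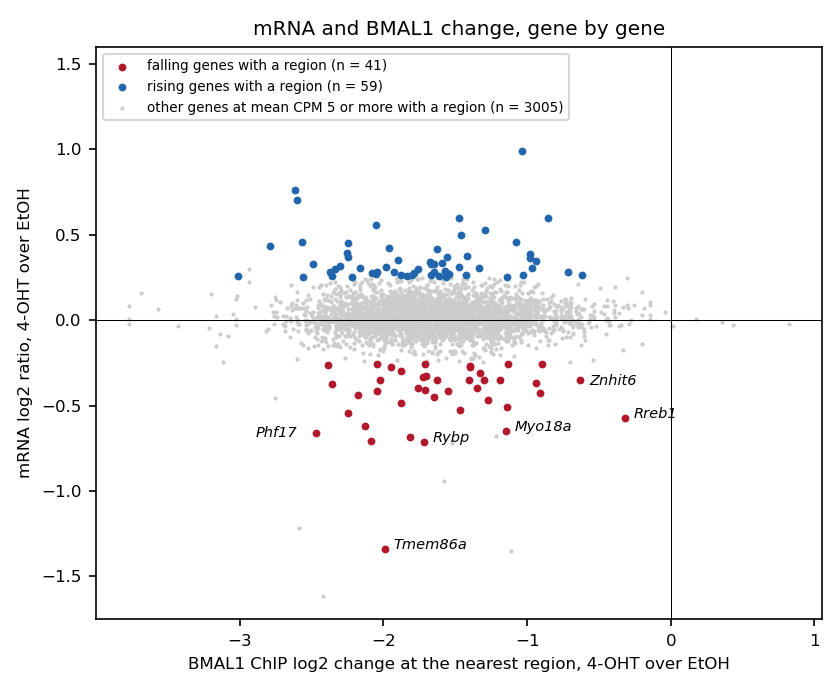
mRNA log2 ratio against ChIP log2 change at the nearest region, 4-OHT over EtOH for both, for the 41 falling genes (red), the 59 rising genes (blue) and 3005 other genes at 5 CPM or more with a region (light grey, among them the 7 falling genes left out by name). The ranges of ChIP change overlap, from −2.47 to −0.32 in falling genes and from −3.01 to −0.62 in rising genes. Rreb1 is the falling gene nearest to 0 at a ChIP log2 change of −0.32.

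Some other genes with a mean of 5 CPM or more start within 10 kb of the same regions, and 4 are described here. These were Myo19 and Ggnbp2 beside Pigw, E130307A14Rik beside Rev3l and Mrpl22 beside Gemin5. Their log2 ratios were −0.05, −0.04, −0.13 and −0.04 in that order. None of the 4 was called, and in each the groups overlapped. E130307A14Rik starts 153 bp from Rev3l on the opposite strand, and the region nearest to Rev3l covers its start. It had 6.70 and 7.29 CPM with 4-OHT, against 8.20 and 7.15 CPM with EtOH. In all, for 3 of the 41 genes another gene's start was closer to the region than their own.

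The 41 genes were on the whole abundant and long. Their median EtOH level was 89.8 CPM, against 20.1 CPM for the rising genes with a region, 35.8 CPM for the 108 falling genes with none and 64.1 CPM for all genes at 5 CPM or more with a region. Per kilobase of exon these medians were 22.9, 6.32, 9.62 and 21.3 CPM. The genomic span had a median of 47730 bp, against 7178 bp in the rising genes, 42540 bp in the falling genes with no region and 20390 bp in all genes with a region. The rule used the CPM values, so the levels are a description, and the part of level and length in the choice of genes was not tested. The falls were of similar size with and without a region, with median log2 ratios of −0.40 and −0.42.

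The 41 genes lie on 16 chromosomes, with 7 on chromosome 3, which holds 5.1% of genes at 5 CPM or more. The 7 are Fabp5, Larp1b, Pgrmc2, Phf17, Il6ra, Ppp3ca and Znhit6, and 3 of them are neighbours. Larp1b, Pgrmc2 (a heme-binding membrane protein) and Phf17 are the only genes at 5 CPM or more that start in the 605103 bp from the start of Larp1b to that of Phf17. Pgrmc2 had 174.9 and 172 CPM with 4-OHT, against 226 and 237 CPM with EtOH. Its nearest region, 80 bp at chr3:41083011-41083090 across the start, held 5.82 and 3.38 RP10M with 4-OHT, against 17.8 and 9.07 RP10M with EtOH (log2 −1.55, SE 0.47, adjusted p = 0.00118), a call lost without 4-OHT replicate 2 and without EtOH replicate 1. A second region of Pgrmc2, 271 bp long and 228 bp upstream of the start, held more reads with EtOH, but fewer per kilobase. Its EtOH level per kilobase was 115 RP10M, against 168 RP10M at the nearest region. This second region held 16.0 and 13.0 RP10M with 4-OHT, against 30.4 and 31.75 RP10M with EtOH. That region was also called lower (log2 −1.12, SE 0.31, edgeR adjusted p = 4.40e-04). Of the expressed genes beside these 3 genes, 3110057O12Rik on the Larp1b side had a log2 ratio of −0.17 (adjusted p = 0.543) and Sclt1 on the Phf17 side −0.14 (adjusted p = 0.506). This stretch was singled out after its values had been seen.

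**Figure D5:**
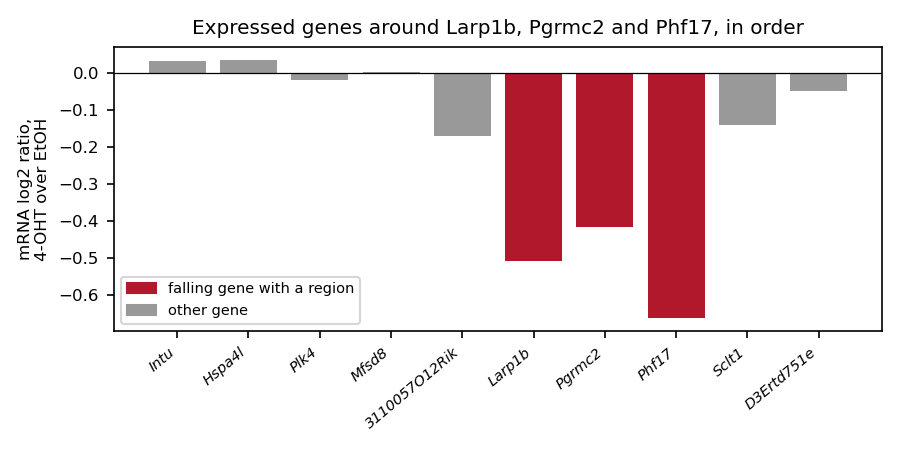
mRNA log2 ratio (4-OHT over EtOH) of the genes at a mean of 5 CPM or more around Larp1b, Pgrmc2 and Phf17 on chromosome 3, in chromosomal order and not to scale along the axis. The 3 falling genes with a region (red) lie between −0.66 and −0.42, and the other genes (grey) between −0.17 and 0.04.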

How the data were processed

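Read counts per gene were deposited by the authors for 4 mRNA libraries, made per the file headers with featureCounts v1.5.0-p1 from reverse-stranded reads over mm10 exons joined by gene. Read counts in 4740 BMAL1 regions, named as MACS2 peaks of the control, were deposited by the authors for 4 ChIP and 4 input libraries, with a fold enrichment (a ratio) and −log10 p and q values per region, which are the authors' own and entered no test. A deposited signal table named as RPKM equals 5 plus reads per 10000000 library reads (RP10M) and is not divided by length, which was tested on all its values and which gave the library totals. The authors' deposited comparison table, with log2 fold changes, p-values and a test score, is DESeq2 output per the file headers. The submitters' processing notes name bedtools 2.25.0, featureCounts and DESeq2. The aligner, and whether replicates were pooled to call regions, are not given in the sources used here.

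CPM is on column sums. The gene counts went into edgeR 4.0.16 under R 4.3.3 (TMM factors, default expression filter, robust quasi-likelihood fit, Benjamini-Hochberg adjustment over all tested genes), and region counts likewise with library totals and no further factor, since factors from the regions would set a shared change to about 0. The fits were tested on simulated data in which only a part of the genes or regions changed. A change shared by most regions and scaled to library totals was not simulated. Alternatives used DESeq2 1.42.0, other scalings and filters, and each library left out in turn. The median log2 ratio of signal and the permuted library medians have a pseudocount of 0.1 RP10M. The shares of signal kept, the fold losses of signal and the CPM ratio have none. The region with the shortest distance to the start is a gene's nearest region. Counts of the ChIP inputs measure background. Of 133 genes on more than 1 chromosome or strand no start was used. The members, the comparison sets and all gene lists were chosen with earlier results of these data known. Lists were 12 pathways and 16 symbol families. Genes named are the 15 lowest log2 ratios, the 10 strongest regions with EtOH, the 5 highest mean CPM, 3 on each side of −0.25, the 3 least and 3 most negative ChIP changes at regions of at least 10 RP10M, and members of a list or symbol family. Pgrmc2 and the neighbours were named after their values were seen. A few genes and 1 symbol family that these rules name are not reported here. Per2 and Esr1 reads cannot be told from those of the transgene. Sequences are RefSeq's, of GRCm38.p6. SEs come from the edgeR fits, whose estimate of spread is partly shared across genes or regions, with 2 libraries per group.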

Additional observations from a re-analysis of the deposited data

How the results depend on the processing

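Every fit kept a negative mRNA change for all 41 genes. This sign was largely fixed in advance, because the rule chose genes that were lower after treatment in these same mRNA libraries. The counts of calls among the 41 given next rest on the same values and also follow in part from that choice. Of the 40 called lower, 23 were called in every fit with 1 library left out (26 to 37 called in any one of them). The number was 39 with DESeq2, 40 on column sums, 41 with no filter, 31 with a replicate block and 41 with the crossed pairing, chosen after seeing the data. Replicate numbers pair nothing by the labels, and deviations of same-numbered mRNA libraries correlated at −0.168. Over all genes the calls were 216 lower and 106 higher, but 186 and 67 with DESeq2, 152 and 60 with the replicate block, 611 and 518 with the crossed pairing, and 140 to 247 lower and 40 to 196 higher with 1 library left out, where the lone library of a group is assumed to vary like the others. The cause of these shifts was not tested.

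For BMAL1, with the replicate block 37 of the 40 regions were called lower, with 1 library left out 30 to 37, with DESeq2 on library totals 27, and with the input change subtracted 22 (of all regions, 4445 lower against 2395). With TMM factors 1 was lower and 2 were higher, and over all regions 219 and 66. DESeq2's own size factors gave 1 lower and, over all regions, 133 lower and 13 higher. Both scalings remove a shared change by construction. The regions above the 4-OHT inputs then numbered 2 with TMM factors, and 21 to 32 with 1 library left out. The median log2 ratio of −1.70 (means with pseudocount) was 0.02 with TMM factors, −1.61 at the strongest region in each window, −1.62 with a pseudocount of 1, and −1.85 to −1.52 with 1 library left out.

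Changes that turned positive with TMM factors were those of Rreb1 (1.37), Znhit6 (1.07), Errfi1 (0.78), 5031439G07Rik (0.78), Syne2 (0.75), Larp1b (0.56), Gemin5 (0.55), Myo18a (0.53), Ywhaq (0.49), Rai1 (0.41), Ppp3ca (0.38), Samd4 (0.36), Atl2 (0.34), C230081A13Rik (0.30), Gpam (0.29), Stambpl1 (0.28), Mef2a (0.23), Pgrmc2 (0.13), Il6ra (0.06, and 0.07 with DESeq2's size factors) and Lrig1 (0.05).

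The rule gave 34 genes with a window of 1 kb, 37 with 5 kb, 54 at a mean CPM of at least 1, 39 at 10, 49 with TMM-scaled CPM and 11 at a log2 ratio of −0.5 or lower. The share of CACGTG in the central part of regions was not run, as no genome was used here. The Rreb1 region, which was not called, rests on 13 to 27 ChIP reads per library.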
